A study of Homo sapiens with 30 samples.

Results

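Nascent transcription was compared between A549 cells that met dexamethasone (Dex) for 3 h with and without a preceding week of GSK591. A549 is a human lung adenocarcinoma cell line, Dex is a synthetic glucocorticoid and GSK591 inhibits PRMT5, the main enzyme that dimethylates arginine symmetrically. The assay was precision run-on sequencing (PRO-seq), in which engaged RNA polymerases extend their transcripts by labelled nucleotides in permeabilised cells, so that the RNA read reports ongoing transcription. The 4 groups, of 2 libraries each, were untreated cells, Dex at 100 nM for 3 h, GSK591 at 1 µM for 7 days, and GSK591 at 1 µM for 7 days followed by Dex at 100 nM for 3 h, all in 0.01% DMSO. These are 8 of the 30 libraries of the series, picked by their group labels. The quantity of interest was the interaction, the log2 response to Dex after GSK591 minus the log2 response to Dex without inhibitor. It equals the log2 shift that GSK591 gave under Dex minus the shift it gave without Dex. It was computed for all 22919 genes that passed the filter on low counts, of 58780 in the count table. A value below 0 means that Dex raised transcription less, or lowered it more, after GSK591.

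As background, Dex binds the glucocorticoid receptor (the product of NR3C1), which moves to the nucleus, binds DNA at response elements and raises or lowers transcription of target genes within minutes to hours. Its best known targets in airway epithelial cells include FKBP5, TSC22D3 and PER1. PRMT5 methylates histones, spliceosomal Sm proteins and other RNA-binding proteins, and its inhibition slows the cell cycle in many lines. The model has limits that bear on every value here. All cells are of 1 line, the labels do not say whether the 2 libraries of a group came from separate cultures, and p-values then measure only the spread between these libraries. The labels of the untreated group name 15 min, and whether its handling was matched to the 3 h of Dex is not given in the sources used here. The same untreated libraries enter both the Dex response and the GSK591 shift.

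Total counts ran from 8995811 to 13069598 per library. Mitochondrial genes and their nuclear copies took 73.4% to 84.0% of these, and 1686216 to 2335672 counts per library remained outside mitochondrial and ribosomal RNA genes. Replicate libraries had a Pearson's r of log2 CPM, taken over 11085 genes, of 0.966 (GSK591 then Dex) to 0.978 (untreated). Of 10 markers of the line, 9 had at least 10 counts in all 8 libraries. CDH1 and EPCAM, defining epithelial markers, were low, at 14 to 58 and 9 to 24 counts. Marker sums were 10 to 48 counts for immune cells, 3 to 18 for endothelial cells and 1 to 10 for fibroblasts. Of 3 genes of the region known to be deleted in this line, CDKN2A and CDKN2B had at most 2 counts, while MTAP had 57 to 147.

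The interaction was called for 51 genes, 0.223% of those tested, by the edgeR quasi-likelihood test with a Benjamini-Hochberg adjusted p below 0.05 over all 22919 genes. It was below 0 for 42 of them (0.183%) and above 0 for 9 (0.0393%). Genes of the cytoskeleton and of signalling (CNN2, CDC42EP3, ACTB, LPAR1, S1PR3) and replication-dependent histones (H2AC4, H2BC3) were among those below 0. So were the AP-1 subunit gene FOSL2 and the growth factor gene CCN1. ANXA6, DEPP1, FEN1 and the lncRNA AC026461.3 were among those above 0. An unadjusted p below 0.05 was reached by 2035 of the 22919 genes. On simulated data of this design, 0% of interactions of 0.5, 19.4% of those of 1 and 66.7% of those of 2 (log2) were called, and 8.06% of calls were false, so most differences of 1 or less were not detectable at this depth.

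**Figure D1:**
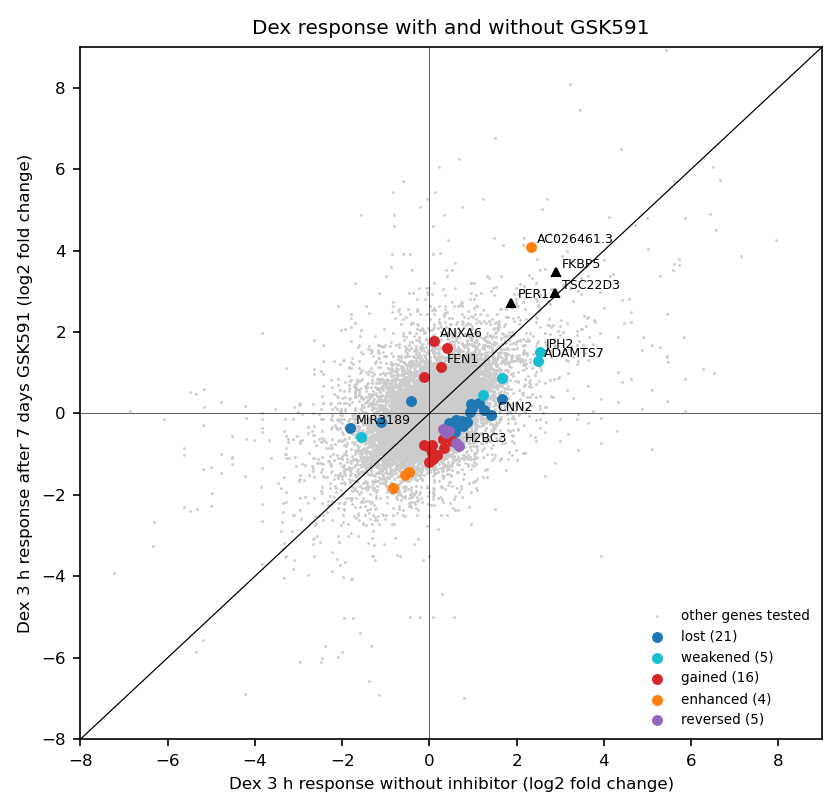
The log2 response to Dex after GSK591 (vertical) against the log2 response without inhibitor (horizontal) for 22919 genes, with the 51 interaction genes coloured by class and 3 uncalled glucocorticoid target genes as black triangles. Points below the diagonal, 42 of the 51, had a lower response after GSK591, either a smaller rise or a larger fall. AC026461.3, ANXA6 and FEN1 lie above it.

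The calls depended on single libraries and were lost with 1 of the scalings. With DESeq2 size factors in edgeR, 50 of the 51 were still called, as were 50 without mitochondrial and ribosomal RNA genes. Without those genes and scaled by the remaining totals, 43 were still called. With library totals as the only scaling, none of the 51 was called by edgeR and 914 genes had an unadjusted p below 0.05. All 51 kept their sign there, with unadjusted p-values of at most 0.0453. DESeq2 called 47 genes, 39 of them shared with the 51. Leaving out untreated replicate 1 or 2 gave 10 or 35 genes, Dex replicate 1 or 2 gave 52 or 11, GSK591 replicate 1 or 2 gave 17 or 11, and GSK591 then Dex replicate 1 or 2 gave 125 or 20. Of the 51 genes, 9, 30, 32, 11, 15, 11, 39 and 18 were still called in these fits, in that order, and 51 kept their sign in all of them. ADAMTS7, CACNG8, PIM1, CCN1, FOSL2 and H4C5 were called without each of the 8 libraries in turn. For every other gene named below as called, at least 1 of the 8 fits lost the call, and the number that kept it is given with the gene.

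Each response was also tested alone. Dex without inhibitor changed 2410 genes, 10.5% of those tested (1400 higher, 1010 lower). Dex after GSK591 changed 2258, or 9.85% (1236 higher, 1022 lower). With library totals as the only scaling, the median of all genes moved up, to 0.15 and 0.21 on the log2 scale, and the calls became 1031 higher and 228 lower, and 1102 higher and 261 lower. GSK591 without Dex changed 3026 genes, 13.2% (1532 higher, 1494 lower), and GSK591 under Dex changed 3107, 13.6% (1420 higher, 1687 lower). Without mitochondrial and ribosomal RNA genes and scaled by the remaining totals, these became 1962 higher and 1163 lower, and 1921 higher and 1158 lower. In both Dex responses, 1125 genes (4.91%) passed in the same direction and 5 in opposite directions. Another 1280 passed only without the inhibitor, but the interaction was called for 21 of these, 1.64%. A gene that passes in only 1 of the 2 responses is therefore not by that fact a gene whose response differed.

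The 51 interaction genes were placed by their tests. A response was lost when it passed without inhibitor and not after GSK591 (21 genes), weakened when it passed in both with a smaller size after GSK591 (5), gained when it passed only after GSK591 (16), enhanced when it passed in both with a larger size (4), and reversed when it passed in both with opposite signs (5). A second label said where GSK591 moved the level. In 27 genes the shift without Dex passed and was larger than that under Dex, and in 24 the shift under Dex passed and was at least as large. The members were chosen by the interaction itself, so these counts describe them and test nothing.

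The known receptor targets come first. FKBP5, a receptor co-chaperone, stood at 5.56 and 5.24 CPM (counts scaled to library size, with TMM factors) in untreated cells, 40.5 and 40.0 after Dex, 2.44 and 4.02 after GSK591 and 33.6 and 37.4 after GSK591 then Dex. Both Dex groups lay far above both groups without Dex. Its log2 response was 2.90 without inhibitor and 3.47 after GSK591, and the interaction of 0.58 (95% interval -0.35 to 1.50) was not called. TSC22D3, which encodes the anti-inflammatory protein GILZ, rose from 13.5 and 16.9 to 114 and 112 CPM without inhibitor and from 14.3 and 15.3 to 121 and 108 CPM after GSK591. The groups with and without GSK591 overlapped at each Dex state, and the interaction was 0.07 (95% interval -0.32 to 0.45). Its exons overlap those of NCBP2L on the opposite strand.

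PER1, a clock gene and direct receptor target, stood at 11.8 and 11.3 CPM in untreated cells and 5.81 and 6.70 after GSK591, and reached 44.6 and 40.3 and, after GSK591, 39.6 and 42.8 CPM under Dex. The GSK591 group lay below the untreated group without Dex (log2 -0.89, SE 0.189, edgeR adjusted p = 5.87e-04), and the groups overlapped under Dex. The interaction of 0.84 (95% interval 0.38 to 1.30) did not pass over all genes (edgeR adjusted p = 0.112). MIR6883 and AC129492.3 share exon positions with it on the same strand. NR3C1, the receptor gene itself, fell under Dex by 0.35 without inhibitor and by 0.62 after GSK591 on the log2 scale, with an interaction of -0.27 (-0.60 to 0.06). PRMT5 stood at 7.90 and 8.77 CPM in untreated and 7.56 and 8.98 in GSK591-treated cells, groups that overlapped. Its transcription does not report the activity of the inhibited enzyme. SNRPB, an Sm protein gene, fell by 0.53 with GSK591 without Dex (SE 0.159, edgeR adjusted p = 0.0193), and its interaction was 0.21 (-0.24 to 0.66).

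Of 31 glucocorticoid-induced genes tested, 27 rose with Dex without inhibitor and 24 rose after GSK591, against 6.11% and 5.39% of all genes. Their median response was 1.28 without inhibitor and 1.31 after GSK591. None was called for the interaction by edgeR, and the median interaction was -0.20 against 0.01 for all genes. An unadjusted p below 0.05 was reached by 12, a larger share than among all genes tested. The 95% interval lay below 0 for 9 (CDKN1C, CEBPB, CEBPD, DUSP1, IRS2, KLF4, SCNN1A, SLC19A2 and TFCP2L1) and above 0 for 3 (ANGPTL4, ERRFI1 and PER1). The 2 C/EBP factor genes in the list had interactions of -0.88 (CEBPD, -1.35 to -0.42) and -0.66 (CEBPB, -1.01 to -0.30). DUSP1, a phosphatase that switches off MAP kinases, had -0.57 (-0.87 to -0.26), from a response of 1.28 without and 0.72 after GSK591. DESeq2 called CEBPD and DUSP1, and edgeR without the filter on low counts called CDKN1C, CEBPB, CEBPD and KLF4. Leaving out GSK591 then Dex replicate 1 also gave these 4, and leaving out untreated replicate 1 gave CDKN1C.

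**Figure D2:**
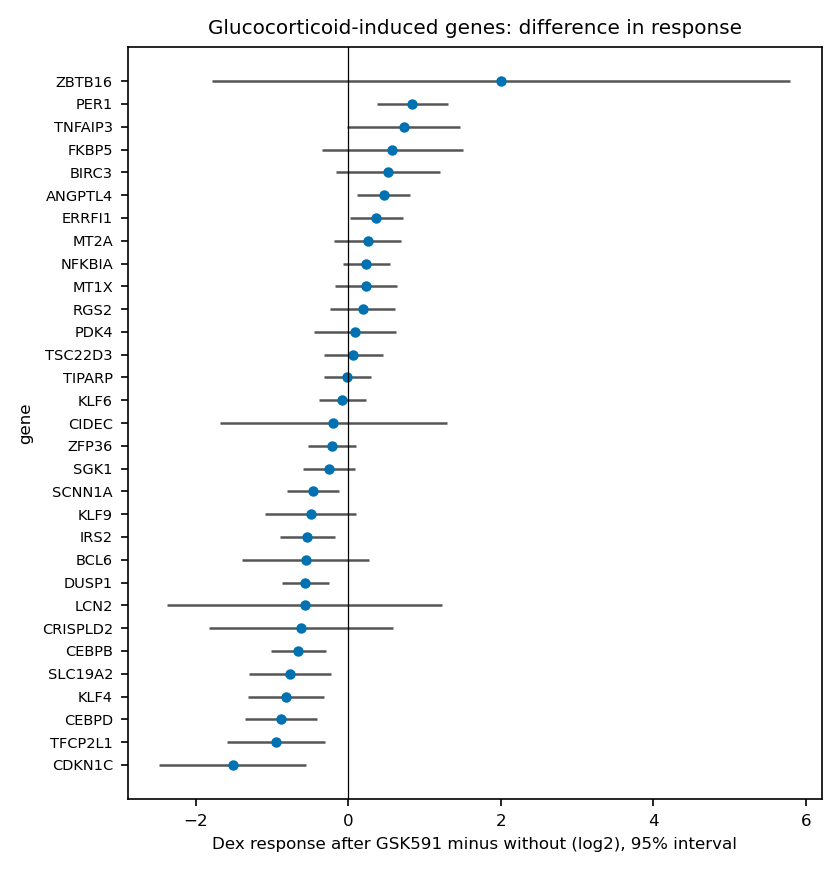
The interaction on the log2 scale (horizontal; points) with its 95% interval (lines, not adjusted for many genes) for 31 glucocorticoid-induced genes (vertical, ordered by the interaction). Intervals of 19 genes hold 0, 9 lie below it and 3 above it, and ZBTB16 and LCN2 have wide intervals at low counts.

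Among 17 glucocorticoid-repressed genes tested, 9 fell with Dex without inhibitor and 10 fell after GSK591 (4.41% and 4.46% of all genes fell). None was called for the interaction by edgeR, and 6 had an unadjusted p below 0.05, again a larger share than among all genes tested. Their directions were split, with 95% intervals above 0 for 3 (CCL2, FOSL1 and GREM1) and below 0 for 3 (AJUBA, CXCL8 and PTGS2). CXCL1, a neutrophil chemokine, fell by 1.39 without and by 1.29 after GSK591 while GSK591 itself raised it by 2.11 without Dex (SE 0.196, edgeR adjusted p = 8.36e-12). GREM1, a secreted BMP antagonist, fell by 3.41 without and by 1.83 after GSK591, and its interaction of 1.58 (0.61 to 2.55) did not pass over all genes (edgeR adjusted p = 0.179). None of 26 receptor, chaperone and coregulator genes was called for the interaction by edgeR, and 1 (DNAJB1) had an unadjusted p below 0.05. In that list, 95% intervals for 22 of the 26 lay within 1 log2 unit of 0.

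Reduced responses made up 26 of the 51 genes, and 22 of these were genes that Dex raised. For 16 of the 22, the shift was at baseline, that is GSK591 raised the level without Dex and moved it less under Dex. The median over these 16 was a response of 1.05 without inhibitor and 0.06 after GSK591, with a GSK591 shift of 0.95 without Dex and 0.05 under Dex. The choice of these genes fixes much of that pattern. Within the 16, ADAMTS7, JPH2, CDC42EP3 and GADD45A still rose with Dex after GSK591, by 1.28, 1.51, 0.86 and 0.46. The untreated libraries enter both values, so a low value there would raise both. Leaving out untreated replicate 1 or 2 gave 5 or 17 genes with a reduced response, Dex replicate 2 gave 5, GSK591 replicate 1 or 2 gave 7 or 4, and GSK591 then Dex replicate 1 or 2 gave 58 or 14.

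Among genes whose Dex response weakened, ADAMTS7, a secreted metalloprotease (ENSG00000136378.14, chromosome 15, 78759203 to 78811431, minus strand, hg38 coordinates of GENCODE 29), stood at 6.12 and 6.45 CPM in untreated cells, 36.0 and 34.7 after Dex, 19.2 and 16.9 after GSK591 and 42.7 and 45.3 after both. No group overlapped another, and GSK591 alone reached a level between untreated and Dex. The response was 2.49 without inhibitor and 1.28 after GSK591, an interaction of -1.21 (SE 0.205, edgeR adjusted p = 0.00146). JPH2, which encodes junctophilin 2, a protein of membrane junctions (ENSG00000149596.6, chromosome 20, 44111695 to 44187578, minus strand), had 3.89 and 4.63 CPM in untreated cells, 25.8 and 23.6 after Dex, 9.88 and 10.2 after GSK591 and 30.8 and 26.2 after both. GSK591 shifted it by 1.23 without Dex and by 0.21 under Dex, an interaction of -1.02 (SE 0.239, edgeR adjusted p = 0.0402, kept in 1 of 8 fits without a library).

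CDC42EP3, an effector of the small GTPase CDC42 (ENSG00000163171.7, chromosome 2, 37641882 to 37738468, minus strand), read 26.2 and 28.5 CPM without treatment, 83.4 and 91.1 after Dex, 51.5 and 48.6 after GSK591 and 98.5 and 83.2 after both. Its levels under Dex overlapped with and without GSK591, and those without Dex did not. The interaction was -0.81 (SE 0.157, edgeR adjusted p = 0.00884, 4 of 8 fits). Its exons overlap those of AC006369.1 on the opposite strand, and the use of strand in counting is not given in the sources used here. GADD45A, a growth arrest and DNA damage gene (ENSG00000116717.12, chromosome 1, 67685061 to 67688338, plus strand), went from 29.4 and 31.3 to 70.6 and 70.7 CPM without inhibitor and from 48.4 and 58.3 to 70.8 and 75.3 CPM after GSK591. The responses were 1.22 and 0.46, and the interaction of -0.76 (SE 0.179, edgeR adjusted p = 0.0458) was kept in 0 of 8 fits.

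CACNG8 went the other way, as a gene that Dex lowers. This auxiliary subunit of AMPA-type glutamate receptors (ENSG00000142408.4, chromosome 19, 53963040 to 53990215, plus strand) had 195 and 162 CPM in untreated cells, 66.3 and 54.2 after Dex, 105 and 134 after GSK591 and 85.5 and 74.8 after both. The untreated libraries were the highest and those with Dex alone the lowest, and no group overlapped another. Its response was -1.57 without inhibitor and -0.57 after GSK591, an interaction of 1.00 (SE 0.168, edgeR adjusted p = 0.00146). The gene's exons hold MIR935 on the same strand. MYADM, a membrane protein gene, was the other Dex-lowered gene with a reduced response and a baseline shift, at -1.11 without inhibitor, -0.21 after GSK591 and -1.03 with GSK591 alone, kept in 2 of 8 fits.

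**Figure D3:**
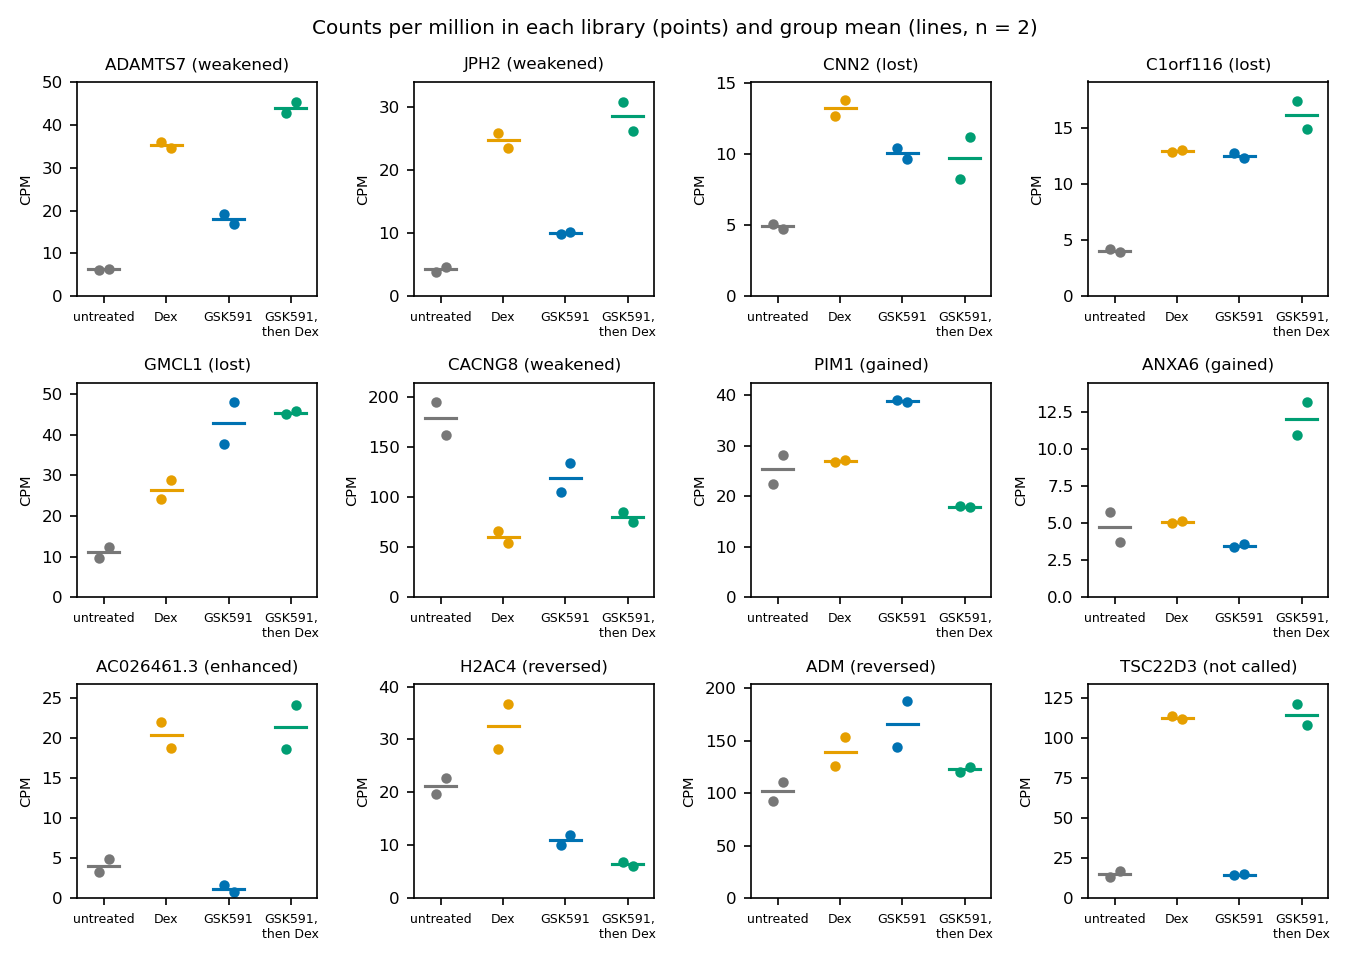
CPM (vertical, linear axes from 0) in each of the 8 libraries (points) with the group mean (lines, n = 2) for 11 interaction genes and TSC22D3. ADAMTS7, JPH2, CNN2, C1orf116 and GMCL1 show raised levels with GSK591 alone, CACNG8 a lowered level, and TSC22D3 the same pattern with and without GSK591.

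CNN2, the calponin 2 gene, whose product binds actin (ENSG00000064666.14, chromosome 19, 1026581 to 1039068, plus strand), had the largest interaction in size among lost responses. It stood at 5.12 and 4.74 CPM in untreated cells, 12.7 and 13.8 after Dex, 10.5 and 9.65 after GSK591 and 8.27 and 11.2 after both. The groups with GSK591 overlapped each other, and both lay above the untreated and below the Dex libraries. The response was 1.42 without inhibitor and -0.05 after GSK591, an interaction of -1.47 (SE 0.317, edgeR adjusted p = 0.0195, 2 of 8 fits). Its exons overlap those of AC011558.1 on the opposite strand. A CArG box, the element bound by serum response factor, was found in the 250 bases before its RefSeq start on either strand, as in 1.40% of 13189 promoters. It was the only interaction gene of 36 matched to a promoter that held one. The window is shown because the actin genes described further below are known targets of that factor, with the box in capitals (chr19:1026358-1026607, plus strand, RefSeq GRCh38.p14).
CNN2: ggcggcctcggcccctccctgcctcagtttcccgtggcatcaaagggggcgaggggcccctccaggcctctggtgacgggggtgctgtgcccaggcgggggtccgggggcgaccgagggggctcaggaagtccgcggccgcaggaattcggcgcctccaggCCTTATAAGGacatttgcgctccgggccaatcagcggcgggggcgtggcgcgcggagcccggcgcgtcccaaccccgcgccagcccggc

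C1orf116, known as an androgen-regulated gene (ENSG00000182795.12, chromosome 1, 207018521 to 207032756, minus strand), stood at 4.23 and 3.93 CPM in untreated cells, 12.9 and 13.1 after Dex, 12.8 and 12.3 after GSK591 and 17.4 and 14.9 after both. GSK591 alone gave levels just below those of Dex alone, and the libraries with both agents were the highest. The response went from 1.67 to 0.36, an interaction of -1.30 (SE 0.274, edgeR adjusted p = 0.0149, 2 of 8 fits). GMCL1, a BTB-domain protein gene (ENSG00000087338.4, chromosome 2, 69829642 to 69881396, plus strand), had 9.68 and 12.4 CPM in untreated cells, 24.1 and 28.8 after Dex, 37.7 and 48.0 after GSK591 and 45.2 and 45.7 after both. Here GSK591 alone gave more than Dex alone, with shifts of 1.95 without Dex and 0.78 under Dex. The interaction was -1.16 (SE 0.210, edgeR adjusted p = 0.00307, 5 of 8 fits). LPAR1, a receptor for lysophosphatidic acid (ENSG00000198121.13, chromosome 9, 110873263 to 111038458, minus strand), went from 7.90 and 8.16 to 12.0 and 15.6 CPM with Dex and from 13.5 and 14.9 to 12.5 and 10.6 CPM with Dex after GSK591. The last 2 groups did not overlap but their difference did not pass, and the interaction was -1.07 (SE 0.250, edgeR adjusted p = 0.0402, 2 of 8 fits).

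The other lost responses with a baseline shift were those of FOSL2 (an AP-1 subunit, interaction -0.86, edgeR adjusted p = 0.00307), PHLDA3 (a p53 target that restrains AKT, -0.90), S1PR3 (a sphingosine-1-phosphate receptor, -0.84), GLRX (glutaredoxin, -0.92), RAB11FIP1 (-0.89), AMOTL2 (-0.69), TRAM1 (-0.77) and PSMG3-AS1 (-1.06). They were kept in 8, 5, 4, 4, 1, 2, 0 and 0 of 8 fits. FOSL2 stood at 73.2 and 76.8 CPM in untreated cells, 124 and 112 after Dex, 118 and 120.1 after GSK591 and 100.2 and 106 after both, with the untreated libraries below the rest. PHLDA3 shares exon positions with AC096677.2 and AMOTL2 with RPL39P5 on the same strand, and RAB11FIP1 and PSMG3-AS1 overlap genes on the opposite strand.

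Lost responses whose shift lay under Dex were 8. ACTB, the beta-actin gene, had 127 and 128 CPM in untreated cells, 218 and 272 after Dex, 127 and 169.5 after GSK591 and 164 and 183 after both. Only the libraries with Dex alone stood clear of the other groups, with responses of 0.95 and 0.23 and an interaction of -0.72 (SE 0.160, edgeR adjusted p = 0.0265, 3 of 8 fits). MYL12A, a myosin light chain gene, LINC01465, CDC37L1 (a co-chaperone related to CDC37), AC008894.3 and H2AC21 had interactions of -0.78, -0.77, -0.93, -1.05 and -0.95, kept in 2, 3, 1, 3 and 2 of 8 fits. AC008894.3 overlaps TPM4 exons on the opposite strand, and MYL12A, LINC01465 and H2AC21 also overlap opposite-strand genes. PHLDA1, which Dex lowered by 0.41 without inhibitor, had an interaction of 0.71, kept in 1 of 8 fits.

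MIR3189 was the largest lost repression. This microRNA gene (ENSG00000264175.1, chromosome 19, 18386562 to 18386634, plus strand) lies within GDF15, a stress cytokine gene, on the same strand. It had 7.90 and 10.7 CPM in untreated cells, 2.66 and 2.56 after Dex, 15.0 and 15.8 after GSK591 and 12.7 and 11.1 after both. The libraries with Dex alone lay below all others. The response was -1.83 without inhibitor and -0.37 after GSK591, an interaction of 1.46 (SE 0.319, edgeR adjusted p = 0.0193, 3 of 8 fits). GDF15 itself fell under Dex by 0.50 without inhibitor and by 0.74 after GSK591, and its interaction was -0.24 (-0.58 to 0.09). Counts on the short microRNA gene are nascent reads at that position and do not measure the mature microRNA. Which transcript they came from was not tested.

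**Figure D4:**
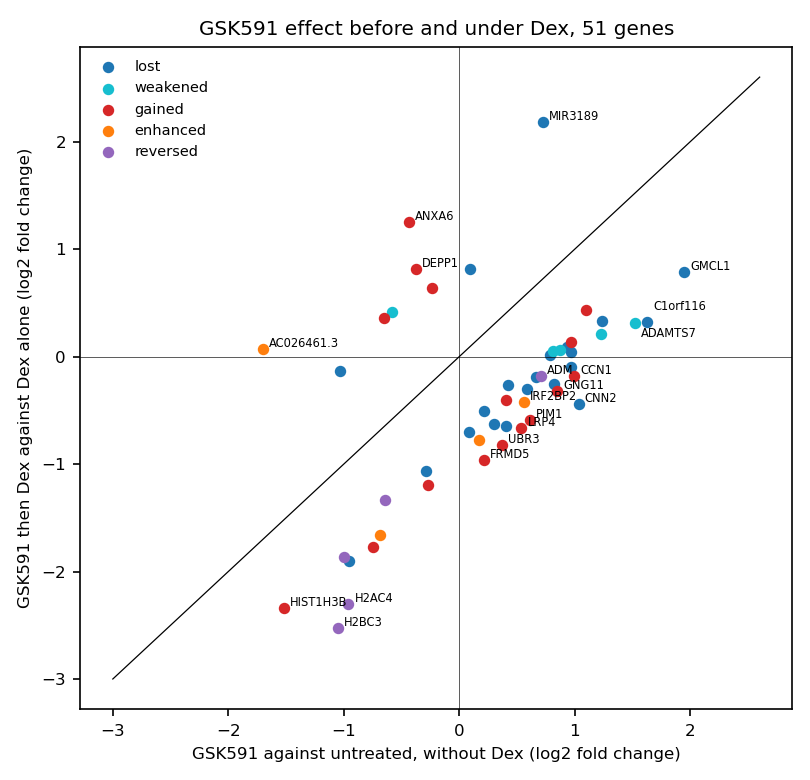
The GSK591 shift under Dex (vertical, log2) against the shift without Dex (horizontal, log2) for the 51 interaction genes, coloured by class. Genes near the horizontal line and right of 0, such as ADAMTS7 and C1orf116, shifted more without Dex than under it, and histone genes such as H2BC3 and H2AC4 lie below 0 on both axes and further down under Dex.

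Gained responses numbered 16, of which 12 were below 0 and 4 above. ANXA6, a calcium-dependent membrane-binding annexin (ENSG00000197043.13, chromosome 5, 151100712 to 151157882, minus strand), had 5.78 and 3.73 CPM in untreated cells, 5.00 and 5.13 after Dex, 3.37 and 3.62 after GSK591 and 10.9 and 13.2 after both. Only the libraries with both agents were raised. The response was 0.10 without inhibitor and 1.78 after GSK591, an interaction of 1.69 (SE 0.360, edgeR adjusted p = 0.0185, 2 of 8 fits). DEPP1, an autophagy regulator gene (ENSG00000165507.8, chromosome 10, 44970981 to 44978810, minus strand), was likewise highest with both agents, with 6.23 and 7.36 CPM in untreated cells, 9.46 and 8.55 after Dex, 4.65 and 5.90 after GSK591 and 15.8 and 16.1 after both. Its interaction was 1.19 (SE 0.279, edgeR adjusted p = 0.0402, 1 of 8 fits), and its exons overlap those of RASSF4 on the opposite strand.

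PIM1, a serine/threonine kinase gene (ENSG00000137193.13, chromosome 6, 37170203 to 37175426, plus strand), had 22.5 and 28.2 CPM in untreated cells, 26.8 and 27.2 after Dex, 39.1 and 38.6 after GSK591 and 18.0 and 17.9 after both. GSK591 alone gave the highest and GSK591 then Dex the lowest libraries. Its response was 0.09 without inhibitor and -1.11 after GSK591, an interaction of -1.20 (SE 0.187, edgeR adjusted p = 5.46e-04). CCN1, a secreted matrix-associated growth factor, had the smallest adjusted p of all interactions. It stood at 24.5 and 26.4 CPM in untreated cells, 27.1 and 29.9 after Dex, 51.1 and 50.0 after GSK591 and 27.5 and 22.7 after both, so only GSK591 alone stood apart. The responses were 0.16 and -1.01, and the interaction was -1.17 (SE 0.171, edgeR adjusted p = 2.30e-04). ALDH3A1 (an aldehyde dehydrogenase, -0.83), GNG11 (a G protein subunit, -1.17) and NABP1 (-0.66) also rose with GSK591 alone and fell with Dex after it, kept in 7, 2 and 1 of 8 fits. TET3, which oxidises methylcytosine, was the mirror image at 1.01, kept in 1 of 8 fits.

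LRP4, a cell-surface receptor gene (ENSG00000134569.9, chromosome 11, 46856868 to 46918642, minus strand), went from 6.90 and 8.77 to 9.14 and 10.9 CPM with Dex and from 11.3 and 11.5 to 5.74 and 6.88 CPM with Dex after GSK591. The libraries with both agents were the lowest, and the groups did not overlap. The interaction was -1.20 (SE 0.279, edgeR adjusted p = 0.0402, 2 of 8 fits), and its exons overlap those of LRP4-AS1 on the opposite strand. UBR3, a ubiquitin ligase gene (ENSG00000144357.16, chromosome 2, 169827458 to 170084131, plus strand), had 9.56 and 10.1 CPM in untreated cells, 11.2 and 17.1 after Dex, 12.7 and 12.7 after GSK591 and 8.38 and 7.45 after both. Its Dex replicate 2 was the highest library, and the interaction of -1.19 (SE 0.268, edgeR adjusted p = 0.0281) was -0.87 without that library (adjusted p = 0.378, 2 of 8 fits). LBH (-0.81) and FRMD5 (-1.18) fell with Dex after GSK591, with responses of -0.01 and 0.11 without it that did not pass, kept in 4 and 0 of 8 fits. FEN1, the flap endonuclease of DNA replication, rose with Dex after GSK591 by 1.13, and its response without inhibitor was 0.26 and did not pass, an interaction of 0.87 (SE 0.170, edgeR adjusted p = 0.00884, 4 of 8 fits). It shares exon positions with FADS2 and TMEM258, so its counts are uncertain. The other 3 gained responses were those of the histone genes H4C5 (-0.92), H4C2 (-1.02) and HIST1H3B (-0.82), kept in 8, 4 and 2 of 8 fits.

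Enhanced responses were 4. The lncRNA AC026461.3 (ENSG00000260823.1, chromosome 16, 56609501 to 56611375, minus strand) ends 3 bases from MT2A, a metallothionein gene on the opposite strand. It had 3.23 and 4.84 CPM in untreated cells, 21.9 and 18.7 after Dex, 1.63 and 0.804 after GSK591 and 18.5 and 24.1 after both. The Dex groups overlapped, and GSK591 alone lay below untreated cells, at 14 and 6 counts. The response was 2.32 without inhibitor and 4.08 after GSK591, an interaction of 1.76 (SE 0.387, edgeR adjusted p = 0.0149, 4 of 8 fits). It was 1.37 to 2.38 over the fits without a library. MT2A rose by 1.69 and 1.94, with an interaction of 0.25 (-0.18 to 0.69).

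The other enhanced responses were repressions. IRF2BP2, a corepressor gene (ENSG00000168264.10, chromosome 1, 234604269 to 234609525, minus strand), went from 53.3 and 58.2 to 30.7 and 31.4 CPM without inhibitor and from 79.2 and 85.2 to 26.1 and 20.2 CPM after GSK591. GSK591 alone gave the highest libraries and GSK591 then Dex the lowest, an interaction of -0.98 (SE 0.176, edgeR adjusted p = 0.00307, 6 of 8 fits). Its exons overlap those of AL160408.2 on the opposite strand. WNT7B, a Wnt ligand gene of the lung epithelium (ENSG00000188064.9, chromosome 22, 45920362 to 45977129, minus strand), went from 36.7 and 34.3 to 25.0 and 26.5 CPM and, after GSK591, from 23.5 and 20.4 to 9.71 and 6.53 CPM. Each agent alone lowered it, and the level with both lay below that given by adding their log2 shifts, with an interaction of -0.97 (SE 0.214, edgeR adjusted p = 0.0254, 2 of 8 fits). SYNJ2, an inositol phosphatase gene (ENSG00000078269.14, chromosome 6, 157981887 to 158099176, plus strand), stood at 28.6 and 24.8 CPM in untreated cells, 18.4 and 17.6 after Dex, 31.1 and 28.7 after GSK591 and 10.3 and 10.8 after both. Its shift with GSK591 alone was 0.17 and did not pass, and the interaction was -0.94 (SE 0.190, edgeR adjusted p = 0.0111, 4 of 8 fits).

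All 5 reversed responses were rises with Dex that became falls. H2BC3, a histone H2B gene (ENSG00000276410.3, chromosome 6, 26043277 to 26043657, minus strand), had 8.79 and 10.3 CPM in untreated cells, 16.7 and 13.8 after Dex, 4.77 and 4.42 after GSK591 and 2.54 and 2.75 after both. Both GSK591 groups lay below the untreated libraries and did not overlap each other. Its response was 0.68 without inhibitor and -0.80 after GSK591, an interaction of -1.48 (SE 0.324, edgeR adjusted p = 0.0220, 2 of 8 fits). H2AC4, a histone H2A gene (ENSG00000278463.1, chromosome 6, 26033176 to 26033568, minus strand), had 19.7 and 22.8 CPM in untreated cells, 28.3 and 36.8 after Dex, 10.00 and 11.9 after GSK591 and 6.95 and 6.19 after both, the same order. Its interaction was -1.34 (SE 0.264, edgeR adjusted p = 0.0111, 4 of 8 fits). H3C10, a histone H3 gene (ENSG00000278828.1, chromosome 6, 27810064 to 27811300, plus strand), went from 48.8 and 55.2 to 66.2 and 70.0 CPM with Dex and from 26.7 and 25.2 to 21.4 and 15.9 CPM with Dex after GSK591, an interaction of -0.86 (SE 0.184, edgeR adjusted p = 0.0191, 3 of 8 fits).

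ADM, which encodes the vasodilator peptide adrenomedullin (ENSG00000148926.9, chromosome 11, 10304680 to 10307397, plus strand), had 92.8 and 111 CPM in untreated cells, 126 and 153 after Dex, 144 and 188 after GSK591 and 120.4 and 125 after both. Its untreated libraries were the lowest, the groups with a single agent overlapped, and the libraries with both agents lay between these and the untreated ones. The response was 0.45 without inhibitor and -0.43 after GSK591, an interaction of -0.89 (SE 0.159, edgeR adjusted p = 0.00307, 5 of 8 fits). ID3, an inhibitor of helix-loop-helix factors (ENSG00000117318.8, chromosome 1, 23557918 to 23559794, minus strand), went from 133 and 158 to 173 and 188 CPM with Dex and from 93.0 and 93.0 to 75.2 and 67.8 CPM with Dex after GSK591. GSK591 lowered it without Dex by 0.64 and under Dex by 1.34, an interaction of -0.69 (SE 0.153, edgeR adjusted p = 0.0257, 3 of 8 fits).

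The histones among these genes were then set beside the rest of their family. Cluster histone genes are transcribed mainly in S phase, when new DNA is packed. Of 70 protein-coding genes with cluster names in GENCODE 29, 56 were tested, a list taken after values had been seen. The counts and medians below therefore describe this list and test nothing. Without inhibitor, Dex raised 10 and lowered 1 (H1-2, a linker histone gene, at -0.46), with a median of 0.23, while 6.11% of all genes rose and 4.41% fell. After GSK591, Dex raised 0 and lowered 15, with a median of -0.31, while 5.39% of all genes rose and 4.46% fell. GSK591 lowered 51 of the 56 without Dex (median -0.98) and 53 under Dex (median -1.56), against 6.52% and 7.36% of all genes lowered. The interaction was called for 7, all lower (H2BC3, H2AC4, H2AC21, H3C10, H4C2, H4C5 and HIST1H3B; 0.183% of all genes were called lower), and was below 0 for 53 of the 56, with a median of -0.56 against 0.01 for all genes. Without untreated replicate 1 or GSK591 then Dex replicate 2, 1 of the 56 was called, and the median was -0.45 in both fits. Without Dex replicate 2 or either GSK591 replicate, 2 were called, and without the filter on low counts 14 were. With library totals as the only scaling, 0 were called and the median was -0.51. Members share nearly identical coding sequences, so reads may be split between them, and fewer cells in S phase and less transcription per cell cannot be told apart in bulk libraries.

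**Figure D5:**
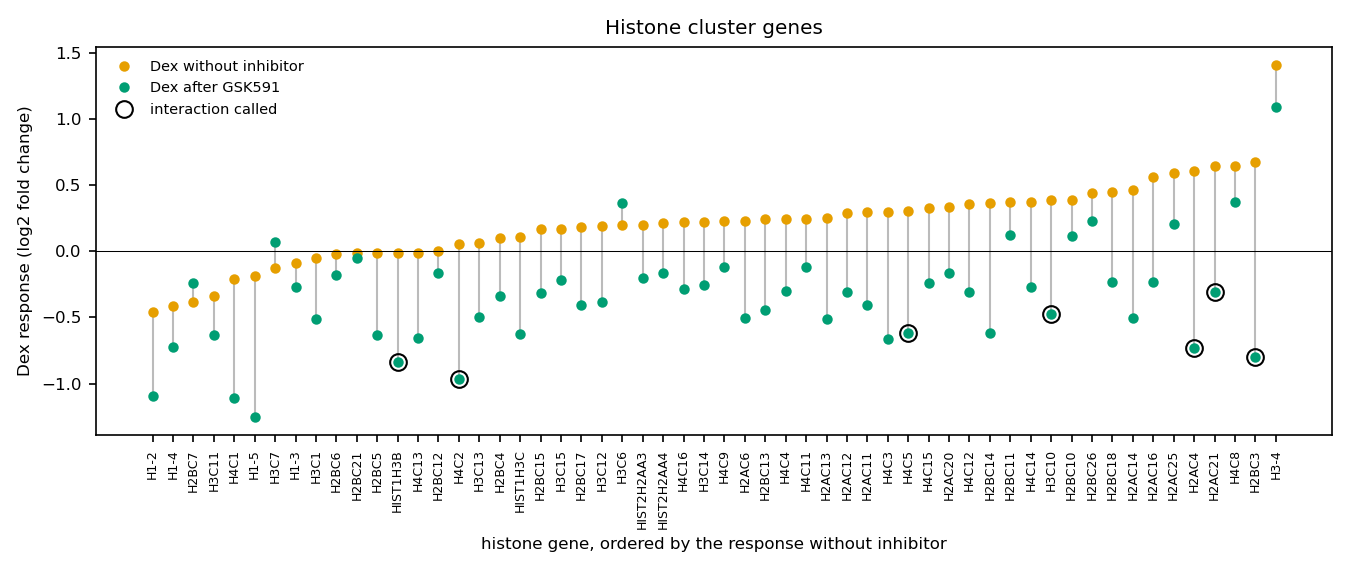
The log2 response to Dex (vertical) of 56 histone cluster genes (horizontal, ordered by the response without inhibitor), without inhibitor (orange) and after GSK591 (green), with called interactions ringed. The green point lies below the orange point for 53 of the 56 genes, and the 7 rings mark H2BC3, H2AC4, H2AC21, H3C10, H4C2, H4C5 and HIST1H3B.

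The promoters of 3 of the called histone genes held the octamer ATTTGCAT on 1 of the strands within 250 bases before the RefSeq start, the element bound by the factor OCT1 in histone H2B promoters. It was present in 18 of 47 histone promoters matched by symbol and in 1.85% of 13189 promoters of tested genes, UBR3 among them. CCAAT was present in 38 of the 47 and in 39.9% of all. The windows are printed so that the shared elements can be read, with the octamer in capitals and all on the minus strand, at chr6:26033619-26033868, chr6:26043714-26043963 and chr1:149887966-149888215 (RefSeq, GRCh38.p14).
H2AC4: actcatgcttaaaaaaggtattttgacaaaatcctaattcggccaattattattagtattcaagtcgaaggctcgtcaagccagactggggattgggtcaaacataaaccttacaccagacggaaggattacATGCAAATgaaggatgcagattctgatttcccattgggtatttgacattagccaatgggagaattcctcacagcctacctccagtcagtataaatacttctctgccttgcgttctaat
H2BC3: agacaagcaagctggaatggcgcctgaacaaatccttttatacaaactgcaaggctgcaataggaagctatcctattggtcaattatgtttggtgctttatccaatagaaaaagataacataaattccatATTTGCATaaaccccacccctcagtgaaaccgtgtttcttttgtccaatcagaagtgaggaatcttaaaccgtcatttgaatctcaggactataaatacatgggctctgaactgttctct
H2AC21: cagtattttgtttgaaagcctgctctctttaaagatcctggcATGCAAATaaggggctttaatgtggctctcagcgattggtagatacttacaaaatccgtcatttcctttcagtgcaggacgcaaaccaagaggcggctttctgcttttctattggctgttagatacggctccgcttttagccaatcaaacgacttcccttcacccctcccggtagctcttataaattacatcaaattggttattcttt
The octamer starts 118, 120 and 208 bases before the gene start, in that order, and is a match of letters, not a site shown to be bound. Of the 36 interaction genes with a promoter, none held the receptor core ACANNNTGT in this window (3.78% of all) and 1 held the AP-1 letters TGANTCA (FRMD5, 6.34% of all). Receptor sites often lie outside such a window, and no match says only that these letters are not in it.

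Baseline shifts without a called difference in response were more frequent than interactions. In 156 genes (0.681% of those tested) both Dex responses passed in the same direction, GSK591 shifted the level in the same direction with and without Dex, and the interaction was not called. Dex raised 96 of these, and GSK591 raised 72 and lowered 24 of the 96. Dex lowered 60, and GSK591 raised 33 and lowered 27 of the 60. The median response of the 96 was 0.90 without and 0.90 after GSK591, and the median GSK591 shift without Dex was 0.77. The choice of these genes fixes much of that pattern, and an uncalled interaction does not show that the 2 responses were equal. C3, the central complement gene, had 1.11 and 1.41 CPM in untreated cells, 3.51 and 3.79 after Dex, 7.91 and 7.77 after GSK591 and 22.1 and 23.4 after both. All 4 groups were separate and each agent added to the other, with responses of 1.51 and 1.53 and an interaction of 0.02 (-0.88 to 0.92).

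TMEM63C, an ion channel gene, went from 0.890 and 0.302 to 6.06 and 7.33 CPM with Dex and from 2.44 and 3.22 to 10.8 and 12.9 CPM after GSK591, with an interaction of -1.42 (-2.46 to -0.37, edgeR adjusted p = 0.280) that did not pass. Its untreated libraries had 8 and 3 counts, and its exons overlap those of CIPC on the same strand. CPM, the carboxypeptidase M gene, rose under Dex by 0.91 both with and without GSK591, while GSK591 raised it by 3.12. Its exons overlap those of MDM2 on the opposite strand, which GSK591 raised by 1.59, and the authors' deposited table lists a shift of 0.66 for CPM, so this value is uncertain. MCM5, a subunit of the replicative helicase, fell from 26.1 and 25.5 to 17.4 and 15.9 CPM with Dex and from 5.93 and 7.77 to 4.30 and 4.13 CPM after GSK591, an interaction of -0.06 (-0.57 to 0.45). SLC26A2, a sulfate transporter gene, rose by 0.90 and 1.48 and was lowered by GSK591 by 1.51.

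The interaction was then read in lists of genes. Of 33 actin cytoskeleton, serum response factor and YAP target genes, a list written after values had been seen, 5 were called and all were lower (ACTB, AMOTL2, CCN1, CNN2 and MYL12A), against 0.183% of all genes called lower. The median interaction was -0.39 against 0.01 for all genes, and 28 of the 33 were below 0. Because values had been seen before the list was written, these counts and medians describe it and test nothing. Dex raised 11 and lowered 4 without inhibitor, and raised 4 and lowered 8 after GSK591. Over all genes these shares were 6.11% and 4.41%, and 5.39% and 4.46%. GSK591 raised 13 and lowered 0 without Dex (6.68% and 6.52% of all genes), and raised 2 and lowered 4 under Dex (6.2% and 7.36%). SRF, the serum response factor gene, had an interaction of -0.99 (-1.48 to -0.50, edgeR adjusted p = 0.0642), just outside the threshold, from responses of 0.29 and -0.69. ZYX (zyxin, -0.64), TAGLN (transgelin, -0.85) and ANKRD1 (-0.76) did not pass either. Intervals lay below 0 for 14 of the 33, held 0 for 17 and lay above 0 for 2 (AXL and TPM2). Without untreated replicate 1, Dex replicate 2 or GSK591 replicate 2, only CCN1 of the 33 was called. Without GSK591 replicate 1, ACTB and CCN1 were called, without untreated replicate 2, AMOTL2, CCN1 and MYL12A, and without GSK591 then Dex replicate 1, CCN1, SRF and ZYX. With library totals as the only scaling, 0 were called by edgeR and the median was -0.35.

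Of 30 DNA replication genes, 24 were lowered by GSK591 without Dex (median -1.28) and 20 under Dex (median -0.74), while 1 (FEN1) was raised under Dex. Over all genes, 6.52% were lowered without Dex, and 7.36% were lowered and 6.2% raised under Dex. FEN1 was the only called interaction (0.0393% of all genes were called higher), and 27 of the 30 were above 0, with a median of 0.27. The calls of FEN1 are uncertain, because it shares exon positions with FADS2 and TMEM258. Intervals lay above 0 for CDC6, GINS1, MCM2, MCM4, MCM7, POLE and TYMS besides FEN1. MCM2 had responses of -0.62 without and 0.49 after GSK591, an interaction of 1.11 (0.44 to 1.79, edgeR adjusted p = 0.173). The median thus had the opposite sign to that of the histone genes, while GSK591 lowered most members of both lists. Of 30 mitosis genes, 23 were lowered by GSK591 without Dex and 21 under Dex (6.52% and 7.36% of all genes), and none was called for the interaction by edgeR, with an unadjusted p below 0.05 for 2 and a median of 0.01. None of 19 genes of the snRNP core was called by edgeR either, with an unadjusted p below 0.05 for 2 and a median of 0.23.

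Of 24 p53 target genes, GSK591 raised 13 without Dex and 11 under Dex (6.68% and 6.2% of all genes rose). Only PHLDA3 was called for the interaction, as lower (0.183% of all genes were called lower). PHLDA3 had 26.7 and 32.1 CPM in untreated cells, 51.8 and 60.7 after Dex, 65.3 and 73.2 after GSK591 and 70.1 and 71.4 after both, with untreated libraries lowest. CDKN1A, which encodes the cell cycle inhibitor p21, rose with Dex by 1.53 without and by 0.97 after GSK591, and its interaction of -0.57 (-0.97 to -0.16) did not pass. MDM2, the p53 ubiquitin ligase gene, had an interaction of -0.20 (-0.51 to 0.12). Of 27 NF-kB, AP-1 and inflammatory genes, FOSL2 was the only call, as lower (0.183% of all genes were called lower). An unadjusted p below 0.05 was reached by 8 of the 27. Intervals lay above 0 for 4 (CCL2, FOS, FOSL1 and NFKB2) and below 0 for 4 (CXCL8, FOSL2, JUND and PTGS2). NFKB2 and RELB, subunits of the noncanonical pathway, fell with Dex by 1.79 and 1.99 without inhibitor and by 1.22 and 1.31 after GSK591, and neither interaction was called.

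The same contrast with MS023, which blocks Type I (asymmetric) arginine methylation and was given for 7 days, shares the untreated and Dex libraries with this one. It was called for 12 of the 51 genes, all lower, against 0.223% of all genes called in either direction and 0.144% called lower. Over the 42 genes below 0 here the median MS023 interaction was -0.57, and over the 9 above 0 it was 0.34. The shared libraries also helped to choose the 51 genes, so these calls and medians are not independent of that choice. The Dex response after GSK591 minus that after MS023 uses no untreated or Dex-only library, but it uses the 4 GSK591 libraries by which the 51 genes were chosen, so its calls among them are not independent of that choice. By that test 2 of the 51 genes were called (0.0785% of all genes, 0.0349% higher and 0.0436% lower), PIM1 with a difference of -1.38 (SE 0.178, edgeR adjusted p = 1.09e-05) and FEN1 with 1.05 (SE 0.168, edgeR adjusted p = 5.55e-04). PIM1 had an interaction of 0.17 with MS023 and FEN1 -0.18. As FEN1 shares exon positions with FADS2 and TMEM258, its values are uncertain. Among the 56 histone genes, the MS023 interaction had a median of -0.49 and the difference between inhibitors was called for none by edgeR. The GSK591 interaction with Dex at 15 min shares the untreated and GSK591 libraries, and by edgeR it was called for 1 of the 51, GNG11, at -1.36 (SE 0.252, adjusted p = 0.0398; 0.00436% of all genes called).

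The build of the interaction genes is given as a description. Their median level was 31.4 CPM against 4.66 CPM for all genes tested. Of the 51, 46 were protein-coding (90.2%, against 65.4% of all genes tested), and 10 had a single exon (19.6%, against 16.7%), among them the histone genes. Exons of 19 overlapped those of another gene (37.3%, against 43.4%). Just inside the threshold lay CDC37L1 (edgeR adjusted p = 0.0474), PSMG3-AS1 and H2AC21 (0.0497), and just outside it DNPH1 (0.0533), HAS3 (0.0545) and IGLON5 (0.0550). The authors' deposited tables, whose counting is not given in the sources used here, list all needed values for 36 of the 51 genes. The difference of responses computed from the authors' deposited tables had the same sign as here in 36 of 36, with a median of -0.61. These tables come from the same study, and the classes did not all match. The authors' deposited tables give a Dex response with an adjusted p below 0.05 for 10 of the 16 lost responses they list. LINC01465, MYL12A, TRAM1, LPAR1, CDC37L1 and PSMG3-AS1 did not pass there. Among gained responses, FRMD5 fell with Dex without inhibitor by 1.19 in the authors' deposited tables (adjusted p = 8.97e-10), against a response of 0.11 here. H2AC4, reversed here, has a Dex response of 0.04 in the authors' deposited tables (adjusted p = 0.912). By the authors' deposited tables the Dex response after GSK591 minus that without inhibitor was -0.02 for UBR3, -0.27 for LPAR1 and 0.30 for FEN1, smaller than the -1.19, -1.07 and 0.87 found here. For FEN1 the authors' deposited tables list a GSK591 shift of -2.04 without Dex, against -0.24 here.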

How the data were processed

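PRO-seq libraries of A549 cells were counted per gene by the authors, and the deposited values are whole-number counts for 58780 genes in 30 libraries. Per the submitters' processing notes featureCounts 2.0.1 (Subread) and genome build hg38 were used, and the use of strand is not given in the sources used here. Without molecular identifiers, errors from depth cover counting only. The authors also deposited DESeq2 tables with log2 fold changes and adjusted p-values, whose counting is not given in the sources used here and which were used only where named.

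Groups were taken from the sample labels. Tests were run in R 4.3.3 with limma 3.58.1 and edgeR 4.0.16. Counts were scaled by TMM and filtered by filterByExpr (minimum count 10, minimum total 15), and all 15 groups entered 1 robust quasi-likelihood fit with 15 residual degrees of freedom. P-values were adjusted by Benjamini and Hochberg over 22919 genes, with a threshold of 0.05. Standard errors are Wald errors from the same fit, and 95% intervals are not adjusted for many genes. The procedure was tested on simulated data. Alternatives were other scalings, no filter, DESeq2 1.42.0, the 4 groups alone, a replicate block and leaving out each library. Up to 5 genes per class with the largest interaction and a mean of at least 1 CPM were named in full, 3 parallel rises and 3 falls with at least 5 CPM, and 6 fixed genes. The values of 1 of the falls are not reported here beyond its range over left-out libraries. CCN1 and ACTB were given in full after their values were seen. Gene positions are from GENCODE 29. The members and lists were chosen with earlier results of these data known.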

Additional observations from a re-analysis of the deposited data

Results flagged for a closer look

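The edgeR test of the difference in log2 Dex response with and without GSK591 called 51 genes (adjusted p below 0.05). The 24 of them chosen by size within each class are listed here, and each difference is given after its gene. Among lost and weakened responses these were CNN2 (-1.47), MIR3189 (1.46), C1orf116 (-1.30), GMCL1 (-1.16) and LPAR1 (-1.07), with ADAMTS7 (-1.21), JPH2 (-1.02), CACNG8 (1.00), CDC42EP3 (-0.81) and GADD45A (-0.76). Among gained and enhanced responses these were ANXA6 (1.69), PIM1 (-1.20), LRP4 (-1.20), DEPP1 (1.19) and UBR3 (-1.19), with AC026461.3 (1.76), IRF2BP2 (-0.98), WNT7B (-0.97) and SYNJ2 (-0.94). Reversed responses were those of H2BC3 (-1.48), H2AC4 (-1.34), ADM (-0.89), H3C10 (-0.86) and ID3 (-0.69). Among the 24, only ADAMTS7, CACNG8 and PIM1 were called without each of the 8 libraries in turn. The call of GADD45A was kept in 0 of 8 such fits, and those of JPH2 and DEPP1 in 1 of 8 each.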

How the results depend on the processing

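With library totals as the only scaling, 0 interactions were called by edgeR (914 genes at an unadjusted p below 0.05), and hence 0 reduced, 0 increased and 0 baseline-shifted responses. The same scaling gave 1259 calls for Dex without inhibitor, 1363 for Dex after GSK591, 1135 for GSK591 without Dex, 1124 for GSK591 under Dex and 34 parallel shifts. Without the filter on low counts the interaction was called for 109 genes, with 60 reduced, 41 increased and 47 baseline-shifted responses. DESeq2 gave 47 interactions, 1470, 1332, 1755 and 1780 calls for the 4 comparisons in the order above, and 77 parallel shifts. The 4 groups alone gave 76 interactions, 32 increased and 41 baseline-shifted responses. Leaving out 1 library gave 10 to 125 interactions, 4 to 58 reduced, 5 to 56 increased and 6 to 46 baseline-shifted responses, 81 to 106 parallel shifts, and 1355 to 2402, 1201 to 2234, 1574 to 3021 and 1677 to 3055 calls for the 4 comparisons. The cause was not tested. All 51 interactions kept their sign under every alternative run, and 34 were called under all alternatives that kept every library except library totals. The uncalled interaction of CPM turned positive with library totals (0.010), remaining totals (0.022), no filter (0.0069) and the replicate block (0.0015), and leaving out 1 library gave -0.34 to 0.39 for CPM, -0.12 to 0.22 for TSC22D3, -0.17 to 0.17 for C3, -0.25 to 0.13 for MCM5 and -0.58 to 0.42 for SPC24. Pairing by replicate number was not evident: deviations of same-numbered libraries correlated at -0.12 to 0.14 over 6 pairs of groups. At this depth, counting noise can hide a pairing, so these low correlations cannot exclude it. With the replicate block the interaction was called for 59 genes, and 2471, 2310, 3110 and 3174 genes were called for the 4 comparisons, with 30 reduced, 23 increased and 30 baseline-shifted responses and 163 parallel shifts. Depth outside mitochondrial and ribosomal RNA genes and 2 libraries per group limit the size of interaction that could be called.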
